A study of Mus musculus with 79 samples.

Results

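The genes described here are 10 that mark astrocytes or carry their transport work: Slc1a2, Slc1a3, Glul, Aqp4, Kcnj10, Gja1, Gjb6, Aldoc, Aldh1l1 and S100b. Their probes were taken by symbol from the platform annotation, which named 14 probes for 8 of the 10 genes, out of 25697 probes on the array and 12739 genes with a named probe. Gjb6 and Kcnj10 had no named probe and were not analysed here. The arrays measured total RNA of the left hippocampus and of the left frontal cortex, cut once at Bregma +1.0 mm, from female mice. WT littermates and APP/PS1 mice, whose transgenes are driven by a Thy1 promoter cassette and are therefore made in neurons, all had surgery and an osmotic pump feeding the right lateral ventricle. WT animals received PBS (11 arrays per tissue). APP/PS1 animals received PBS (8 arrays per tissue), a non-targeting control antisense oligonucleotide (control ASO, 11 arrays per tissue) or an ASO against the myeloid receptor Cd33 (CD33 ASO, 9 hippocampal and 10 cortical arrays). Infusion began at 18 weeks of age and lasted 14 days at 6 µL, with 75 µg of ASO, a day, and tissue was taken at about 20.5 weeks, usually 17 days after surgery (13 to 16 days in 4 animals). In all, 40 animals were used for 79 arrays, and 39 animals had an array of each tissue. The protocol text gives 10 animals per group, while the sample labels give the numbers above.

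Astrocytes clear glutamate from the synapse through Slc1a2 (GLT-1) and Slc1a3 (GLAST), and Glul (glutamine synthetase) turns it into glutamine that is passed back to neurons. Their endfeet on blood vessels carry the water channel Aqp4, the potassium channel Kcnj10 takes up extracellular potassium, and Gja1 and Gjb6 form the gap junctions that join astrocytes into a network. Aldoc is the aldolase isoform typical of brain astrocytes, Aldh1l1 is a folate enzyme used as a marker of astrocytes throughout the brain, and S100b is a calcium-binding protein of astrocytes that some oligodendrocyte lineage cells also make.

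For the pair of genes with the highest Pearson correlation in each tissue (Slc1a2 with Aldh1l1 in the hippocampus, where r was 0.68, Spearman's rho 0.32, and r 0.41 without 2 arrays, and Aldoc with Gja1 in the cortex), the 250 bases before the RefSeq transcript start (GRCm38.p6, plus strand) are shown. The Slc1a2 window lies at chr2:102706188-102706437, before a later transcript start inside the gene, whose annotated span begins at 102658239. The Aldh1l1 window lies at chr6:90550543-90550792 and reaches past the annotated gene start at 90550768. Aldoc is shown, from the first of 2 listed starts, at chr11:78322823-78323072, and Gja1 at chr10:56377050-56377299. Capitals mark matches on either strand to the NFI site TTGGC, the SOX core ACAAT or the STAT site TTCNNNGAA, motifs of factor families at work in astrocytes.
Slc1a2: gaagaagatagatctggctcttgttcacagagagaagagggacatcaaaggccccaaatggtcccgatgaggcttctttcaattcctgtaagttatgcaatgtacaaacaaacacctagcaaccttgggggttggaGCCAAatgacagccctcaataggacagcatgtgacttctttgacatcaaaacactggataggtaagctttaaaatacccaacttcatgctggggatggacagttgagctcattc
Aldh1l1: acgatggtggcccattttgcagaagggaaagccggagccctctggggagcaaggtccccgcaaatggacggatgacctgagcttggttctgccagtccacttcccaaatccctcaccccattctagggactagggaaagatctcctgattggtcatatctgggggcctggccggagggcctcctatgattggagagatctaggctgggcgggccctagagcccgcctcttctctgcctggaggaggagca
Aldoc: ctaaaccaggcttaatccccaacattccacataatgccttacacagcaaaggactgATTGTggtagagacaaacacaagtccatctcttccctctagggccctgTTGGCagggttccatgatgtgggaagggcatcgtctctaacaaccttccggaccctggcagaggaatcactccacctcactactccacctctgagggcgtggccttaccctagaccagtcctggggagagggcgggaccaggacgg
Gja1: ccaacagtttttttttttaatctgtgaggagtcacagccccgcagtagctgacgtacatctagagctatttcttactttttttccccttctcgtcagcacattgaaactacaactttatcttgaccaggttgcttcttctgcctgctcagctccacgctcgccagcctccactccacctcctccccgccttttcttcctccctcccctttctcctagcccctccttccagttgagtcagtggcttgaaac
A match to TTGGC stood in Slc1a2, 114 bases before the start, and in Aldoc, 146 bases before it, and Aldoc also held a match to ACAAT. The window before the second Aldoc start, at chr11:78323948-78324197 and not printed, held 2 matches to TTCNNNGAA, 124 and 83 bases before that start. Aldh1l1 and Gja1 held no match to any of the 3 motifs in this window. Over all 32851 windows of the same length, 41.5% held TTGGC, 27.7% held ACAAT and 7.02% held TTCNNNGAA on either strand, so the matches are a description of the sequence only.

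Between 13105 and 14446 probes per array were above background at a detection p under 0.05. The hippocampal arrays filled 5 slides and the cortical arrays another 5, so tissue and slide cannot be told apart, whereas the slides of a tissue held several groups. Slide changed 27.8% of all hippocampal probes and 21.9% of cortical ones, and 4 and 5 of the 13 tested member probes. The Thy1 probe read 13.76 to 14.03 in WT hippocampus and 14.51 to 14.80 in APP/PS1 hippocampus with PBS. In 7 arrays of 4 animals labelled APP/PS1, all given an ASO, it lay within the WT range of the tissue or, in 1 cortical array (13.81, against 13.85 for the lowest WT array), below it. Values without these animals are given where they change a call. Nothing in the labels speaks of pooled animals, so each array stands for 1 animal. The hippocampal Cd33 signal spanned 6.15 to 7.16 with control ASO and 4.45 to 5.15 with CD33 ASO.

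All values are log2 signals after background correction and quantile normalization over the 79 arrays, and levels are compared only within a probe. In each tissue 13 of the 14 member probes passed the filter, which asked for 8 or more arrays of the tissue with a detection p under 0.05. The probe left out, Slc1a2 ILMN_3047516, was above background on 4 hippocampal and 2 cortical arrays. Bright and detected on every array were the single probes of Slc1a3, Aldoc, Gja1 and Aqp4, the Slc1a2 probes ILMN_3076439 and ILMN_3123195, and the Aldh1l1 probes ILMN_2703392, ILMN_2706906 and ILMN_3100276. The labelled tissue therefore carried 6 of the 8 measured astrocyte markers at clear levels. The S100b probe was above background on 17 of 39 hippocampal and 18 of 40 cortical arrays, Aldh1l1 ILMN_3027287 on 18 and 17, and Slc1a2 ILMN_2642339 on 28 and 32. The Glul probe was detected on all but 1 array of each tissue, with signals between 4.99 and 7.18. Little can be read from differences of these dim probes.

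Slc1a2, the main glutamate transporter of the forebrain, kept to a narrow band in all groups. By probe ILMN_3076439, hippocampal signals ran from 10.31 over a median of 10.49 to 10.77 in WT, from 10.25 over 10.50 to 10.69 in APP/PS1 with PBS, from 10.19 over 10.49 to 11.24 with control ASO and from 10.47 over 10.65 to 11.00 with CD33 ASO. The groups overlapped throughout, and the single high value with control ASO stood clear of the next in its group at 10.75. In the cortex the same probe read 10.33, 10.43 and 10.60 (lowest, median, highest) in WT, 10.21, 10.51 and 10.84 with PBS, 9.89, 10.52 and 10.72 with control ASO and 10.19, 10.70 and 10.79 with CD33 ASO. Here too every pair of groups overlapped. The lowest values with control ASO (replicate 5) and CD33 ASO (replicate 10) came from animals of low Thy1, and the next read 10.15 and 10.27. APP/PS1 with PBS differed from WT by -0.02 (95% interval -0.20 to 0.16) in the hippocampus and by 0.05 (-0.12 to 0.22) in the cortex. With CD33 ASO the signal was 0.20 above PBS in the hippocampus (limma, adjusted p = 0.245) and 0.19 above control ASO in the cortex (limma, adjusted p = 0.441). Probe ILMN_3123195 gave 0.20 and 0.17 for those comparisons (limma, adjusted p = 0.29 and 0.445), so the values of both bright probes are alike and neither passed the test.

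Slc1a3, the glutamate transporter shared by astrocytes and cerebellar Bergmann glia, varied least of the members with Gja1 and Aldoc. Hippocampal signals were 13.50, 13.69 and 13.88 (lowest, median, highest) in WT, 13.57, 13.66 and 13.76 with PBS, 13.63, 13.81 and 14.04 with control ASO and 13.51, 13.69 and 13.96 with CD33 ASO. The control ASO arrays lay highest on average, and their range overlapped that of every other group. Cortical signals were 13.64, 13.73 and 13.99 in WT, 13.58, 13.78 and 13.99 with PBS, 13.77, 13.89 and 14.14 with control ASO and 13.72, 13.85 and 14.01 with CD33 ASO. Control ASO against PBS gave 0.15 ± 0.05 (SE) in the hippocampus (limma, adjusted p = 0.056) and 0.10 in the cortex (limma, adjusted p = 0.475). The hippocampal difference was 0.30 with median centring (limma, adjusted p = 0.0105) and 0.05 with slide as a fixed block (limma, adjusted p = 0.785), and its adjusted p ranged between these values over 12 alternatives.

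Glul, the glutamine synthetase of astrocytes, was read by a dim probe whose spread was the widest of the detected members. Hippocampal signals were 4.99, 6.18 and 6.55 (lowest, median, highest) in WT, 5.99, 6.33 and 6.96 with PBS, 5.91, 6.34 and 6.56 with control ASO and 5.47, 6.31 and 6.46 with CD33 ASO. The groups overlapped, with a single low array in WT (4.99) and in the CD33 ASO group (5.47), and 2 arrays with PBS (6.96 and 6.79) above every array of the other groups. APP/PS1 with PBS differed from WT by 0.35 (95% interval 0.04 to 0.67, limma, adjusted p = 0.496) in the hippocampus. Cortical signals were 5.15, 6.44 and 6.93 in WT, 5.59, 6.29 and 6.84 with PBS, 5.83, 6.39 and 7.18 with control ASO and 5.71, 6.17 and 6.72 with CD33 ASO. The cortical groups shared most of their range, and the genotype difference was -0.05 (-0.45 to 0.35). Slide changed this probe in both tissues (limma, adjusted p = 0.0217 in the hippocampus and 2.97e-05 in the cortex).

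Aqp4, the water channel of the endfoot, showed the widest separations among the bright probes, between the tissues and between genotypes in the cortex. Cortical signals were 8.82, 9.37 and 10.19 (lowest, median, highest) in WT, 9.59, 9.91 and 10.34 in APP/PS1 with PBS, 9.06, 9.84 and 10.32 with control ASO and 9.06, 9.93 and 10.35 with CD33 ASO. All but 1 of the WT arrays lay at or below 9.71, and the remaining WT array (replicate 2) read 10.19, inside the APP/PS1 range. The genotype difference was 0.47 ± 0.15 (SE), a fold of 1.38, with a 95% interval of 0.16 to 0.77, and did not pass the test over all cortical probes (limma, adjusted p = 0.0775). Without that WT array it was 0.54 (limma, adjusted p = 0.0235), without the animals of low Thy1, which are not in this contrast but enter the shared spread, it stayed at 0.47 (limma, adjusted p = 0.0249), and over 12 alternatives the adjusted p ran from 0.0249 to 0.151. In the 5 slides that held both groups the difference was above 0 in all 5, from 0.11 to 0.66. Hippocampal signals were 9.43, 10.08 and 10.27 in WT, 9.69, 10.09 and 10.31 with PBS, 9.54, 10.15 and 10.41 with control ASO and 9.60, 10.06 and 10.64 with CD33 ASO. These overlapped almost completely, and the genotype difference was 0.13 (95% interval -0.12 to 0.37). The cortical genotype difference exceeded the hippocampal one by 0.34 (limma, adjusted p = 0.679), so the tissues were not shown to differ. Neither ASO moved Aqp4 past the test, and the CD33 ASO against control ASO differences were 0.01 (-0.23 to 0.24) in the hippocampus and 0.02 (-0.27 to 0.30) in the cortex.

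Gja1, the main connexin of astrocyte gap junctions, had the tightest hippocampal values of all members (SD within groups 0.0957). Hippocampal signals were 12.70, 12.85 and 12.99 (lowest, median, highest) in WT, 12.80, 12.91 and 13.12 with PBS, 12.70, 12.87 and 13.09 with control ASO and 12.77, 12.88 and 13.04 with CD33 ASO. Cortical signals were 12.52, 12.70 and 12.88 in WT, 12.60, 12.78 and 12.98 with PBS, 12.47, 12.77 and 13.03 with control ASO and 12.64, 12.84 and 13.07 with CD33 ASO. In both tissues the groups lay on top of each other. The genotype difference was 0.09 (95% interval -0.000584 to 0.18) in the hippocampus and 0.07 (-0.06 to 0.19) in the cortex, and CD33 ASO against control ASO gave 0.01 (-0.07 to 0.10) and 0.06 (-0.06 to 0.18). None of these passed the test.

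**Figure D1:**
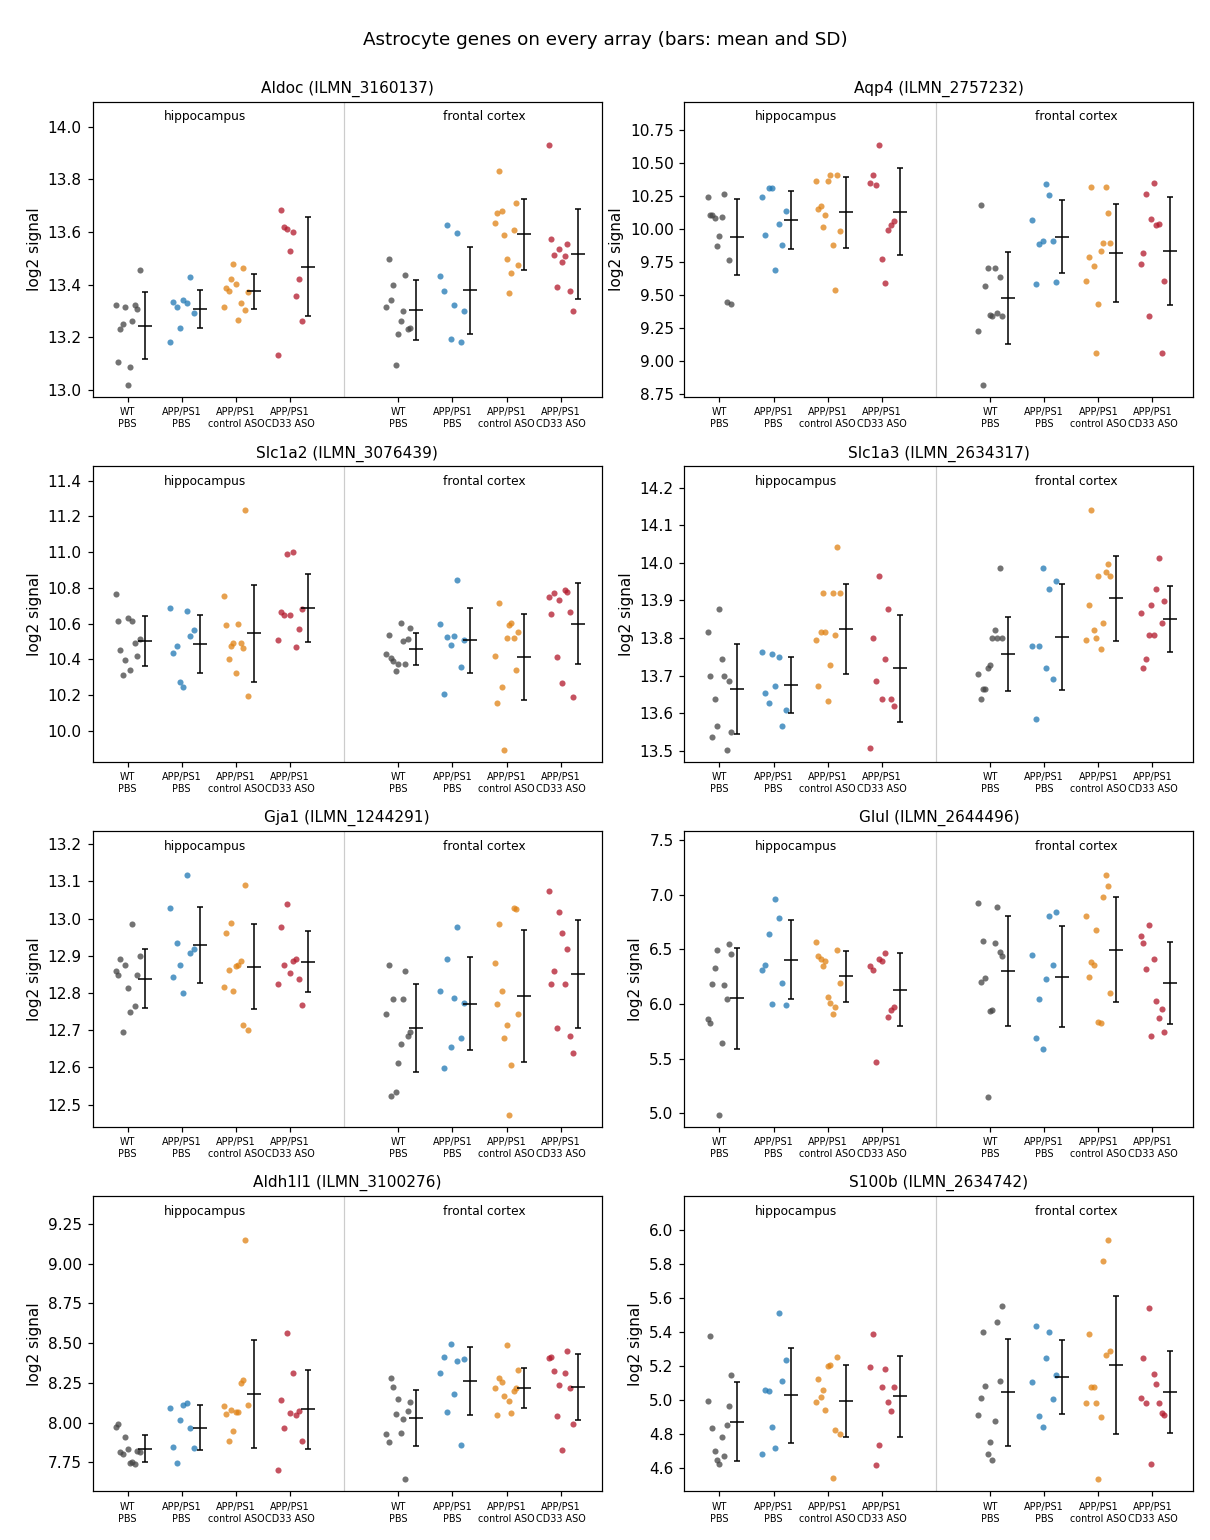
Log2 signal of the brightest probe of each of the 8 measured genes on every array, by group and tissue (points: arrays, bars: mean and SD). Groups overlap in every panel. In the cortex 10 of the 11 WT points of Aqp4 lie at or below 9.71, and in the hippocampus 1 control ASO point of Aldh1l1 reads 9.15.

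Aldoc, the astrocytic aldolase of glycolysis, gave no call, with positive differences of either ASO from PBS in both tissues. Hippocampal signals were 13.02, 13.26 and 13.46 (lowest, median, highest) in WT, 13.18, 13.32 and 13.43 with PBS, 13.27, 13.38 and 13.48 with control ASO and 13.13, 13.53 and 13.69 with CD33 ASO. The CD33 ASO arrays reached highest and also held the lowest value of the 3 APP/PS1 groups. Cortical signals were 13.10, 13.30 and 13.50 in WT, 13.18, 13.35 and 13.63 with PBS, 13.37, 13.61 and 13.83 with control ASO and 13.30, 13.51 and 13.93 with CD33 ASO. CD33 ASO against PBS gave 0.16 ± 0.06 (SE) in the hippocampus (limma, adjusted p = 0.0999) and 0.14 in the cortex (limma, adjusted p = 0.345). Control ASO against PBS gave 0.07 in the hippocampus (limma, adjusted p = 0.453) and 0.21 ± 0.06 (SE) in the cortex (limma, adjusted p = 0.106). The hippocampal control ASO difference was 0.22 with median centring and passed there (limma, adjusted p = 0.0358), and over 12 alternatives its adjusted p ran from 0.0358 to 0.579. The hippocampal CD33 ASO difference passed with slide as a fixed block (0.17, limma, adjusted p = 0.0364) and without CD33 ASO replicate 1, an animal collected after 13 days (0.20, limma, adjusted p = 0.0131), and over 12 alternatives its adjusted p ran from 0.0364 to 0.175. The cortical control ASO difference passed without APP/PS1 PBS replicate 3 (0.25, limma, adjusted p = 0.0465). Aldoc moved with slide in both tissues (limma, adjusted p = 0.00726 and 0.00651), and its comparisons with PBS share the 8 PBS arrays of a tissue.

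Aldh1l1 gave the only member call among the 8 comparisons within a tissue, a higher signal with control ASO than with PBS in the hippocampus at 1 of its 4 probes. Signals of that probe, ILMN_2703392, were 7.64, 7.88 and 8.04 (lowest, median, highest) in APP/PS1 with PBS and 7.85, 8.14 and 9.19 with control ASO, beside 7.59, 7.84 and 8.13 in WT and 7.83, 8.04 and 8.66 with CD33 ASO. The control ASO arrays lay higher as a group and overlapped the PBS arrays between 7.85 and 8.04, with 1 array (replicate 10) at 9.19 far above the next at 8.34. The difference was 0.35 ± 0.12 (SE), a fold of 1.27 (limma, adjusted p = 0.0448). The other bright probes gave 0.20 (ILMN_2706906, 95% interval -0.03 to 0.43) and 0.21 (ILMN_3100276, 0.00394 to 0.42), which did not pass, and the near-background probe ILMN_3027287 gave -0.01 (-0.29 to 0.28). Replicate 10 comes from an animal of low Thy1. It had the highest Gfap of its group (11.30) and was the highest of its group at 9 of the 13 member probes, and without it the Aldh1l1 difference was 0.25 (limma, adjusted p = 0.0801). Without all animals of low Thy1 it was 0.24 (limma, adjusted p = 0.1003). The call was also lost in 11 other fits that each left out 1 array, so 12 of 19 lost it, with adjusted p between 0.0514 and 0.0901.

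The 2 groups of this call were spread unevenly over the slides. Slide itself did not pass the test at this probe (limma, adjusted p = 0.131). Of the 11 control ASO arrays, 5 lay on slide 4, which held no PBS array, and these 5 had a median of 8.33, against 8.03 for the 4 control ASO arrays on slide 1 and 8.02 for the 2 on slide 2. In slides 1 and 2, which held both groups, the difference was 0.06 and 0.26. With slide as a fixed block it was 0.21 (limma, adjusted p = 0.559) and with slide as a random block 0.28 (limma, adjusted p = 0.21), and over 12 alternatives the adjusted p ran from 0.0256 to 0.559. In the cortex the same probe read 7.72, 8.19 and 8.71 (lowest, median, highest) with PBS and 8.03, 8.23 and 8.59 with control ASO, the second range lying inside the first. The cortical difference was 0.01 (95% interval -0.18 to 0.20), and the gap between the tissues was -0.34, cortex minus hippocampus (limma, adjusted p = 0.246), so it was not shown that the effect differs. With CD33 ASO against PBS the hippocampal probe gave 0.26 (limma, adjusted p = 0.269).

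For the genotype comparison in the cortex, Aldh1l1 ILMN_3100276 read 7.64, 8.06 and 8.28 (lowest, median, highest) in WT and 7.86, 8.35 and 8.49 in APP/PS1 with PBS. The groups overlapped, with most APP/PS1 arrays in the upper part of the joint range. The difference was 0.23 ± 0.08 (SE, limma, adjusted p = 0.132), and without the 4 animals collected on another day, which include PBS replicate 7, the lowest of its group, it was 0.29 (limma, adjusted p = 0.0283). Probes ILMN_2703392 and ILMN_2706906 gave 0.14 and 0.20 there, and both missed the threshold. S100b, whose probe lay near background, differed by 0.15 (95% interval -0.07 to 0.38) in the hippocampus and 0.09 (-0.19 to 0.37) in the cortex between genotypes.

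The members were set against all probes of a tissue. A probe was called at a Benjamini-Hochberg adjusted p under 0.05 over all probes tested in limma. For genotype, 0 of 13 member probes were called in the hippocampus, where 0.952% of all probes were, and 0 of 13 in the cortex, where 4.18% were, with 1 and 3 member probes at an unadjusted p under 0.05. Control ASO against PBS gave 1 of 13 in the hippocampus against 11.4% of all probes and 0 of 13 in the cortex against 0.926%, with 4 and 2 at an unadjusted p under 0.05. CD33 ASO against PBS gave 0 of 13 in the hippocampus (background 4.96%) and 0 of 13 in the cortex (1.49%), with 4 and 1 at an unadjusted p under 0.05. CD33 ASO against control ASO gave 0 of 13 in the hippocampus (3.53%) and 0 of 13 in the cortex (0.322%), with 1 and 2 at an unadjusted p under 0.05. The median member difference lay between -0.06 and 0.09 in these 8 comparisons, where the median of all probes lay between -0.03 and 0.01. The median absolute difference was larger over the members than over all probes in 6 of the 8 comparisons, such as 0.138 against 0.0855 for CD33 ASO against PBS in the hippocampus, and smaller for control ASO against PBS in the hippocampus (0.0971 against 0.110) and for genotype in the cortex (0.0764 against 0.0843). With 13 probes, counts of 0 or 1 are close to these shares and say nothing particular about the members. The shares hold for the adjusted threshold. No share of all probes was counted at an unadjusted p under 0.05, so the unadjusted counts have no background beside them. No member probe had groups that did not overlap in any comparison, and the share of all probes without overlap was not counted. The 95% intervals of 11 to 13 of the 13 probes stayed within 0.5 of 0 in each. For the bright probes so counted, changes of that size were bounded under this processing. The count also holds near-background probes, for which such an interval sets no bound. Aldh1l1 ILMN_3027287 ran from -2.41 to 0.05 over the alternatives for control ASO against PBS in the hippocampus. Of the 8 comparisons, those of genotype and of either ASO with PBS use the same 8 PBS arrays of APP/PS1 mice.

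**Figure D2:**
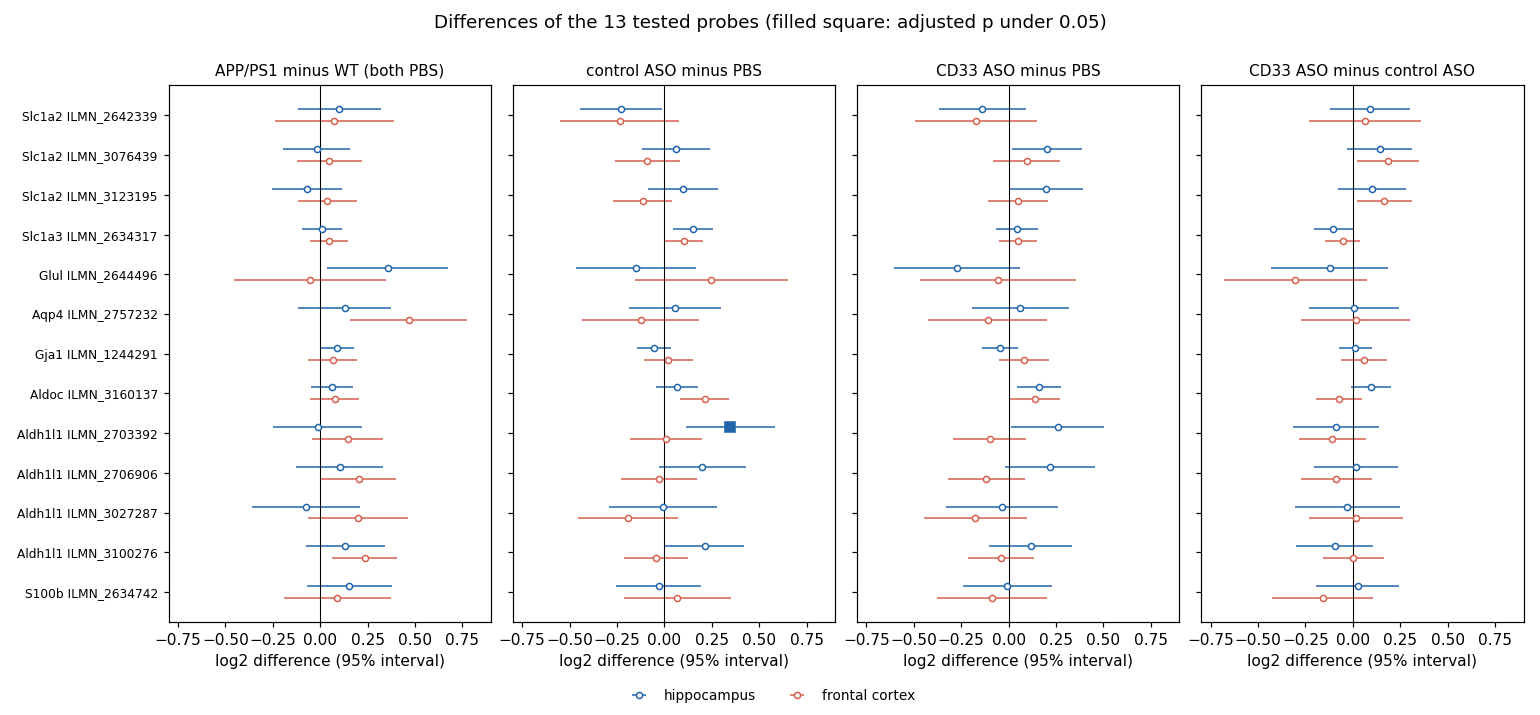
Log2 difference with its 95% interval for the 13 tested probes in the 4 comparisons, hippocampus in blue and frontal cortex in red. The filled square is the single probe past the threshold, Aldh1l1 ILMN_2703392 with control ASO against PBS in the hippocampus (0.35), and the widest shift that misses it is Aqp4 between genotypes in the cortex (0.47).

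Whether an effect differed between the tissues was tested for the same probes, and 0 of 13 were called each time. The share of all probes called was 0.32% for the genotype effect, 0.203% for control ASO against PBS, 0.124% for CD33 ASO against PBS and 0.00654% for CD33 ASO against control ASO. At an unadjusted p under 0.05 there were 0, 1, 2 and 1 member probes in limma, and no share of all probes was counted at that threshold. The intervals of these differences were wider, and between 7 and 11 of 13 stayed within 0.5 of 0.

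The tissues were compared in WT, where all 11 animals gave both. In this comparison 3 of 13 member probes passed the test, 2 higher in the hippocampus and 1 lower, where 38.1% of all probes did, 19.5% higher and 18.5% lower. Aqp4 was higher in the hippocampus by 0.46 ± 0.13 (SE), a fold of 1.38, with means of 9.94 and 9.48 (limma, adjusted p = 0.00163). Within animals the hippocampus minus cortex difference ran from -0.13 over a median of 0.60 to 0.95, and 9 of 11 animals were higher in the hippocampus. Gja1 was higher in the hippocampus by 0.13 ± 0.05 (SE), a fold of 1.10, with means of 12.84 and 12.71 (limma, adjusted p = 0.0253), and again 9 of 11 animals showed that direction. Aldh1l1 ILMN_2706906 was lower in the hippocampus by 0.25 ± 0.10 (SE), with means of 7.77 and 8.02 (limma, adjusted p = 0.0276), in 8 of 11 animals. The Aldh1l1 probes ILMN_2703392 (-0.22) and ILMN_3100276 (-0.19) had the same sign and missed the threshold (limma, adjusted p = 0.0635 and 0.0632). Both passed when the WT arrays were fitted alone with the animal as a fixed block (limma, adjusted p = 0.0321 and 0.0325) and when the animals of low Thy1 were left out of the shared spread (limma, adjusted p = 0.0304 and 0.0250), and over 12 alternatives their adjusted p ran from 0.0304 to 0.429 and from 0.0250 to 0.502. The ranges of the tissues overlapped for every member, and overlap was not counted over all probes.

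The Aqp4 and Gja1 differences stood in all 12 alternatives, from 0.46 to 0.60 and from 0.13 to 0.25, with the larger values when quantile normalization was done within each tissue or when the authors' table was used. Only background correction, scaling and the authors' table moved these differences. The filters, the blocks and the left-out APP/PS1 animals left them unchanged and altered only the adjusted p. The Gja1 call was lost when hippocampal WT replicate 8 (0.12) or cortical WT replicate 3 (0.12) or 5 (0.12) was left out, and the Aqp4 call never was. The Aldh1l1 difference was -0.13 in the authors' table (limma, adjusted p = 0.253), -0.15 with quantile normalization within each tissue (limma, adjusted p = 0.193) and -0.18 with median centring (limma, adjusted p = 0.189). It also lost its call in 6 of 22 fits that each left out 1 WT array (hippocampal replicates 4, 5, 8 and 9 and cortical replicates 3 and 11), with adjusted p of 0.0504 to 0.0580 in limma. Slc1a2 differed between the tissues by 0.05 (95% interval -0.11 to 0.20) for ILMN_3076439. This was 0.20 in the authors' table (limma, adjusted p = 0.0269) and 0.19 with quantile normalization within each tissue (limma, adjusted p = 0.0407). Over 12 alternatives its adjusted p ran from 0.0269 to 0.776. Probe ILMN_3123195 gave 0.04, and passed only in the authors' table (0.18, limma, adjusted p = 0.0443). Slc1a3 was -0.09 (-0.18 to -0.00136, limma, adjusted p = 0.106), and passed with WT arrays alone and the animal as a fixed block (limma, adjusted p = 0.0470, range over 12 alternatives 0.0470 to 0.746). Aldoc was -0.06 (-0.16 to 0.05), Glul -0.25 (-0.58 to 0.07) and S100b -0.17 (-0.40 to 0.05). Slc1a3 and Aldoc changed sign with the scaling, Slc1a3 up to 0.03 and Aldoc up to 0.09. In bulk tissue fewer cells of a type and less RNA per cell cannot be told apart.

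**Figure D3:**
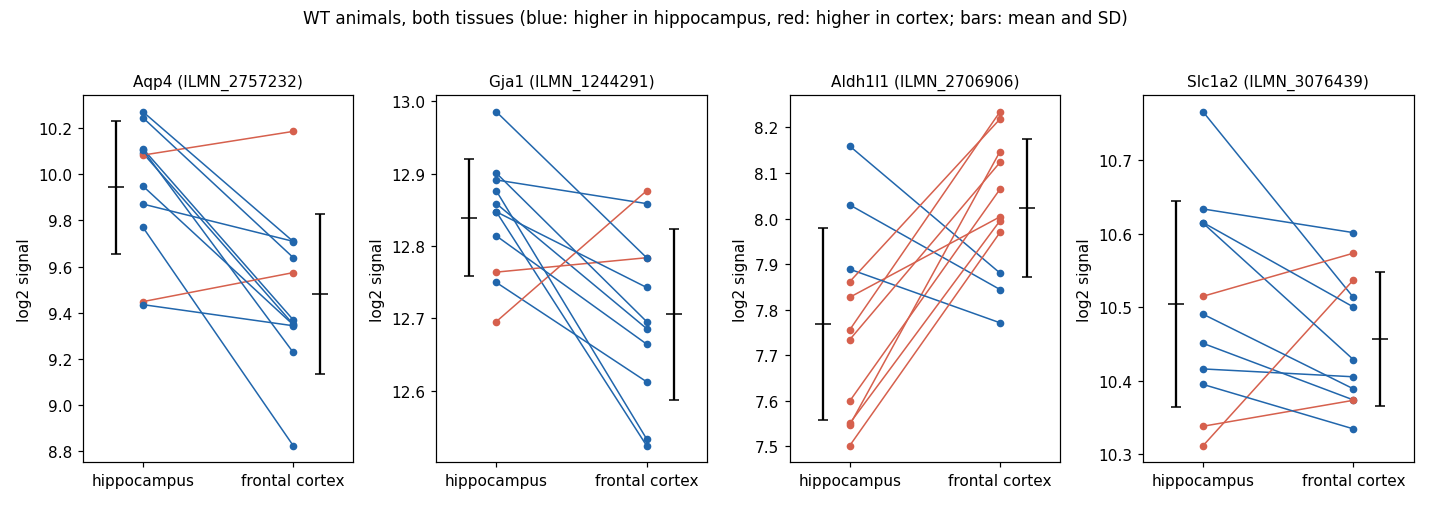
Log2 signal of 4 probes in the hippocampus and frontal cortex of the 11 WT animals, with a line for each animal (blue: higher in hippocampus, red: higher in cortex) and mean and SD beside each tissue. For Aqp4 and Gja1 9 of 11 lines fall toward the cortex and for Aldh1l1 8 of 11 rise.

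The same gap was taken in the APP/PS1 groups, where no member's tissue difference of an effect passed the test. For Aqp4 the mean gap, hippocampus minus cortex, was 0.46 in WT, 0.13 in APP/PS1 with PBS, 0.31 with control ASO and 0.27 with CD33 ASO. The Aldh1l1 ILMN_2703392 gap was -0.22 in WT and -0.37 with PBS, where 0 of 8 animals were higher in the hippocampus, and -0.03 and -0.05 with the 2 oligonucleotides. The Slc1a3 gap was between -0.13 and -0.08 in all 4 groups.

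Other astrocyte genes were measured on the same arrays. In this and the following lists a gene was counted when any of its probes was called. The 35 astrocyte genes tested had 46 probes, so counts of genes can run above shares taken over probes. Of 35 tested genes enriched in astrocytes, 17 were higher and 4 lower in WT hippocampus than in WT cortex (19.5% and 18.5% over all probes), among them Agt (angiotensinogen, 1.89), Slc14a1 (a urea transporter, 1.01) and Nfib (an NFI transcription factor, 0.70). With control ASO against PBS in the hippocampus 7 of the 35 were higher and 1 lower (11.4% of all probes called), such as Htra1 (a secreted protease, 0.33) higher and Slc7a10 (an amino acid transporter, -0.62) lower. With genotype in the cortex 4 were higher (4.18% of all probes called), including Slc14a1 (0.98) and Clu (clusterin, 0.23). Of the reactive astrocyte genes, 3 of 18 were higher with genotype in the hippocampus (0.952% of all probes called) and 9 of 17 in the cortex (4.18%). Gfap, the intermediate filament of reactive astrocytes, rose by 1.05 in the hippocampus and 2.26 in the cortex. The Gfap effect was larger in the cortex by 1.20 (limma, adjusted p = 0.00559). With control ASO against PBS 5 of 18 reactive genes were higher in the hippocampus (11.4% of all probes called), led by Cd44 (0.52), Aspg (0.52) and Serpina3n (0.49). In the cortex 0 of 17 were called (0.926%). With CD33 ASO against PBS 11 of 18 were higher in the hippocampus (4.96% of all probes called) and 3 of 17 in the cortex (1.49%). CD33 ASO against control ASO, the test of the difference between the oligonucleotides, gave 2 of 18 higher in the hippocampus, Cxcl10 (0.68) and C4b (0.44), and 0 of 17 in the cortex. The shares of all probes called were 3.53% and 0.322%.

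Partners of the members by function were counted in the same way, against the shares of all probes given above (11.4% for control ASO against PBS in the hippocampus, 4.18% for genotype in the cortex, and 19.5% higher and 18.5% lower between the WT tissues). Of 12 other genes of the glutamate and glutamine cycle, 1 was higher and 1 lower in the hippocampus with control ASO against PBS, the vesicular transporter Slc17a7 (0.16) and the transaminase Got1 (-0.48), and 1 and 1 in the cortex with genotype, Slc1a4 (0.25) and Slc17a6 (-0.28). Between the WT tissues 1 of these 12 was higher in the hippocampus, the neuronal glutamate transporter Slc1a1 (0.53, limma, adjusted p = 7.09e-20). Another 2 were lower there, Slc7a11 (-0.29) and Slc38a2 (-0.21). Of 8 scaffold genes of the endfoot, Lamb2, a laminin of the vessel wall, was higher (0.35) and Dag1, the dystroglycan that anchors endfeet, lower (-0.28) with control ASO against PBS in the hippocampus. Dtna (0.31) and Sspn (0.20), members of the dystrophin complex, were higher in WT hippocampus, as Aqp4 was. Of 7 other connexins and pannexins, 5 were lower in WT hippocampus and none higher, Gjb2 by -0.82 and the neuronal Gjd2 by -0.39, opposite in sign to Gja1. Of 18 other genes of glycolysis and lactate transport, the pathway of Aldoc, 2 were higher and 3 lower with control ASO against PBS in the hippocampus, among them the sister aldolase Aldoa (-0.30), and 3 were higher and 5 lower in WT hippocampus. Of the folate genes, the pathway of Aldh1l1, 1 of 5 was higher with genotype in the cortex, the mitochondrial Aldh1l2 (0.58), and 3 of 7 were higher in WT hippocampus, with Folr1, a folate receptor of choroid plexus, at 3.37. Of 9 genes of ion pumps, channels and chloride transport, Atp1b3 was lower with control ASO against PBS in the hippocampus (-0.18), Atp1b1 was lower with genotype in the cortex (-0.16), and 2 were higher and 1 lower in WT hippocampus.

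Markers of other cell types moved in the same arrays, and their part in the member values was not tested. Microglial genes were higher with genotype, 4 of 8 in the hippocampus (0.952% of all probes called) and 8 of 8 in the cortex (4.18%). Mean levels of the list were 7.25 to 7.55 in WT cortex and 8.56 to 9.12 in APP/PS1 cortex with PBS. The contrast that held the Aldh1l1 call, control ASO against PBS in the hippocampus, called 11.4% of all probes. In it 2 of 8 microglial genes were higher, C1qa (0.59) and Tmem119 (0.58). Lower were 4 of 8 oligodendrocyte genes, with Opalin, a myelin protein, at -0.96. The mean microglial level there was 7.70 to 8.39 with PBS and 7.93 to 8.62 with control ASO, and the oligodendrocyte level 10.29 to 10.86 and 10.16 to 10.63. In the cortex 3 of 8 oligodendrocyte genes were lower with control ASO against PBS (0.926% of all probes called), with Opalin at -0.93. Oligodendrocyte genes were also lower with CD33 ASO against PBS, 8 of 8 in the hippocampus (4.96% of all probes called) and 6 of 8 in the cortex (1.49%). Their hippocampal mean levels were 9.94 to 10.34 with CD33 ASO. CD33 ASO against control ASO gave 5 of 8 lower in the hippocampus (3.53% of all probes called) and 3 of 8 in the cortex (0.322%). In WT hippocampus against cortex, 19.5% of all probes were higher and 18.5% lower. Higher were 8 of 8 oligodendrocyte genes and 5 of 6 choroid plexus and ependymal genes, with Ttr, the transthyretin of choroid plexus, 7.46 higher. Lower were 5 of 7 neuronal genes and 2 of 9 vascular genes, the vascular count being near the share of all probes. The mean level of the choroid and ependymal list spanned 6.47 to 9.59 among WT hippocampal arrays, against 5.78 to 6.21 in the cortex, where fewer of its probes passed the filter.

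Within a group the members did not rise and fall as 1 block. After removing group means, correlations between the brightest probes of the 8 genes had a median r of 0.21 in the hippocampus (28 pairs over 39 arrays) and 0.19 in the cortex (28 pairs over 40 arrays), and 3 pairs in each tissue exceeded 0.5. Slc1a2 and Aldh1l1 reached r = 0.68 in the hippocampus (rho 0.32), which fell to 0.41 without the 2 most distant arrays, and Slc1a2 and Gja1 r = 0.64 (rho 0.52, 0.58 without 2). In the cortex Aldoc and Gja1 reached r = 0.78 (rho 0.77, 0.78 without 2), and 0.83 after removing slide as well. Aqp4 and Aldoc gave r = -0.28 in the hippocampus (rho -0.26). The pairs share arrays, slides and normalization, and these values are descriptions without a test. Arrays of the animals of low Thy1 were kept in all correlations, and none was recomputed without all of these animals. The hippocampal Slc1a2 and Aldh1l1 values were highest in control ASO replicate 10, and CD33 ASO replicate 4 was the highest of its group at 6 of 13 member probes.

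**Figure D4:**
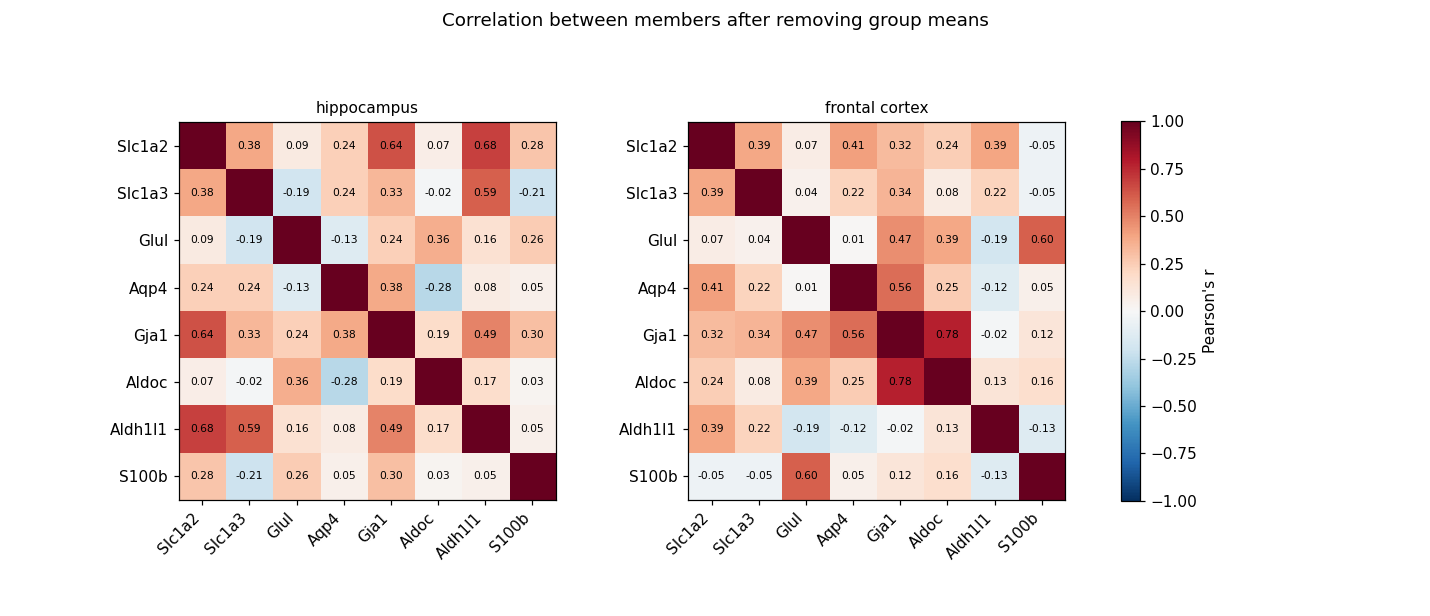
Pearson's r between the brightest probes of the 8 genes after removing group means, in the hippocampus (39 arrays) and frontal cortex (40 arrays). The highest values are Slc1a2 with Aldh1l1 in the hippocampus (0.68) and Aldoc with Gja1 in the cortex (0.78).

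Probes of 1 gene agreed where they were bright. The bright Slc1a2 probes gave r = 0.92 in the hippocampus and 0.75 in the cortex, and the bright Aldh1l1 probes 0.71 to 0.83 and 0.62 to 0.72. The dim probes of both genes followed the bright ones weakly, with r between 0.05 and 0.36. Across the 39 animals with both tissues, the hippocampal and cortical values of a member were at most weakly related after removing group means, with r from -0.25 for Slc1a2 to 0.26 for Aqp4 (rho 0.02 and 0.22). Without the 2 most distant animals these were 0.04 and 0.09.

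By likeness over all arrays of a tissue after removing group means, the nearest genes outside the list differed between tissues. In the cortex Aqp4 was nearest to Cx3cr1, the fractalkine receptor of microglia (r = 0.82, rho 0.79, 40 arrays, 0.76 without 2), then Trim2 and Gpd2 (0.81 and 0.80). The lowest cortical Aqp4 values with control ASO (replicate 5, 9.06) and with CD33 ASO (replicate 9, 9.06) came from animals of low Thy1. The same arrays held the lowest Gfap of their groups (8.41 and 8.49). Their part in these correlations was not tested. In the hippocampus Aqp4 was nearest to Atp6v0a2, a proton pump subunit (r = 0.75, rho 0.75). Aldoc was near Gstm1, a glutathione transferase, in both tissues (r = 0.70 and 0.75). Gja1 was nearest to Cd164 in the cortex (r = 0.77) and to Havcr2 in the hippocampus (r = 0.70), and Slc1a3 to Fgd2 in the hippocampus (r = 0.76). Scara3 was among the 3 nearest genes of Aldh1l1 in the hippocampus (r = 0.79, 0.62 without 2) and of Slc1a2 in the cortex (r = 0.69). Aldh1l1 was also near the cell division genes Prc1 and Pbk in the hippocampus (r = 0.81 and 0.79), with rho 0.55 and 0.40 and with r of 0.48 and 0.32 without the 2 most distant arrays, so these values rest on those arrays. After removing slide as well as group means, Gstm1, Cd164, Fgd2 and Prc1 were no longer among the 3 nearest genes of their members. Cx3cr1, Trim2, Gpd2, Atp6v0a2, Havcr2, Scara3 and Pbk stayed among them.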

How the data were processed

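Total RNA of 79 brain samples was hybridised to bead arrays (Illumina MouseRef-8 v2). Per the file headers, the authors deposited intensity values, background-subtracted and not normalized between arrays, with a detection p-value for each probe, and a table of log2 values of 18960 probes. BeadStudio, GenomeStudio and Partek were used, per the submitters' processing notes, which give no versions.

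Here limma 3.58.1 in R 4.3.3 ran neqc (offset 16, quantile normalization over all arrays). Probes with a detection p under 0.05 on at least 8 arrays of a tissue were kept: 14923 in the hippocampus, 14581 in the cortex and 15290 for the tissue comparisons. Symbols came from the platform annotation held by GEO, which gave a single symbol to 17800 probes and none to 7897. Each tissue had its own fit with 4 groups (lmFit, eBayes with trend, Benjamini-Hochberg over all probes). Tissue comparisons used 8 groups with animal as a random block (consensus correlation 0.0801). Errors are SEs and 95% intervals. The fits were also run on simulated data with independent noise and no slide or animal effect, and no result is drawn from that run here. The number of arrays limits the precision.

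The members and lists were chosen with earlier results of these data known. All member probes are reported. Of other lists at most the 3 called genes of largest change per comparison are named, and for each member the 3 genes of highest Pearson r. Cd33, Thy1 and Gfap are given as values. Replicate numbers do not pair the samples: in no comparison did every same-numbered pair deviate together. Alternatives covered background correction, scaling, filters, slide, session, replicate number and animal blocks, the deposited log2 values and left-out animals and arrays. Figures were drawn with matplotlib 3.10.9 in Python 3.11.15. Sequences come from RefSeq (GRCm38.p6) and were taken for 9 of the 10 genes. No window was taken for Aqp4.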

Additional observations from a re-analysis of the deposited data

Results flagged for a closer look

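In the groups of 8 to 10 arrays, 56 sets of values of a member probe were checked for a single array far from the others, and 3 held one. Chance alone flags about 1 set in 20. Aldh1l1 ILMN_2706906 read 8.70 in hippocampal CD33 ASO replicate 4, and the next array of its group read 8.20. Aldoc read 13.93 in cortical CD33 ASO replicate 1, with the next at 13.57. The near-background Slc1a2 probe ILMN_3047516 read 5.09 in hippocampal APP/PS1 PBS replicate 2, with the next at 4.69. The WT and control ASO groups, of 11 arrays each, were not checked. They include hippocampal control ASO replicate 10, which read 9.19 at Aldh1l1 ILMN_2703392, with the next at 8.34. No effect of a member differed between the tissues by the test of that difference.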

How the results depend on the processing

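The count of member probes called for control ASO against PBS in the hippocampus (1) was 3 with median centring, 2 with detection required on every array and 0 without a filter, with slide as a fixed or a random block, with the replicate block, without the animals of low Thy1 and without the animals collected on another day. Leaving out each array gave 0 to 2. For CD33 ASO against PBS in the hippocampus (0) it was 1 with slide as a fixed block and without the animals collected on another day, and 0 to 1 with an array left out. For genotype in the cortex (0) it was 1 without the animals of low Thy1 or those of another day, and 0 to 1 with an array left out. For control ASO against PBS in the cortex an array left out gave 0 to 1. For WT hippocampus against cortex (3) it was 2 with median centring, 4 in the authors' table, 5 without the animals of low Thy1, 6 with WT arrays alone and the animal as a fixed block, and 1 to 5 with an array left out, using the correlation of all arrays. The cause of these changes was not tested. All other counts stayed at 0 under every alternative run. The replicate block left Aldh1l1 ILMN_2703392 at 0.31 (limma, adjusted p = 0.0639) and changed no other call. Of the single member values under the alternatives other than left-out arrays, 15 passed and 9 lost the threshold, 72 changed sign without a call and 1880 kept sign and call. The shift of all probes between tissues under within-tissue scaling was 0.083. Dim probes and the number of arrays limit what can be seen.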
